A study of Glycine max with 6 samples.

Results

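Vacuolar processing enzymes, aspartic proteases and R1, taken to be a cystatin, were followed in developing soybean (Glycine max) cotyledons, the storage organs of the seed, taken at a weight of 150 mg. The members were all soybean probe sets, each a group of short probes for one transcript, whose gene symbol on the array begins with SOYAP or VPE or is R1. The rule used names and no measured values. It found 7 probe sets of 5 genes among 37593 soybean probe sets: 1 each for VPE (gene identifier 547964), SOYAP2 (548009) and R1 (548091), and 2 each for VPE2 (547700) and SOYAP1 (547478). There were 3 samples: a nontransgenic control, called jack in the labels, and 2 independent transgenic lines in which seed storage proteins were suppressed by RNA interference (RNAi), a means of silencing genes with double-stranded RNA of their own sequence. Every sample was measured on 2 arrays as technical replicates, which gave 6 arrays. The labels give neither the construct's target genes, its promoter, nor how many seeds or plants made up a sample, so each line and the control count as 1 sample each.

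The protein storage vacuole is where seed globulins are finished and kept. Vacuolar processing enzymes, also called legumains, are asparaginyl endopeptidases. They cut after asparagine, and in seeds they are known for cleaving proglycinin into its acidic and basic chains and for maturing other vacuolar proteins. Aspartic proteases of the plant vacuole carry an inserted domain related to saposins and are known to trim storage proteins in vitro. Cystatins are small inhibitors of papain-type cysteine proteases, and some also inhibit legumains. R1 is taken here to be the soybean cystatin known by that name. The tables used give the symbol and no product name, so that identity was not checked. No sequences are shown, because none of the tables used here holds the probes, transcripts or proteins of these genes.

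The values are linear intensities per probe set, as deposited, and their precision is limited by how few arrays there are. Background was taken from probe sets for other organisms on the same array, at their 95th percentile, which lay between 68.4 and 91.7. A soybean probe set above it on both arrays of at least 1 sample was tested, which left 27460, all 7 members included. Of the members 6 were above background on all 6 arrays. Differences are on the log2(signal + 16) scale and keep the scaling of arrays that the authors had applied, under which the median over tested probe sets was 0.016. The spiked-in poly-A control RNAs were at a geometric mean of 5538 and 5736 on the control arrays and between 1826 and 1944 on the RNAi arrays. Scaled to them, that median was 1.52, so every direction below is relative to the other transcripts of the array. In such a bulk sample, fewer cells of a type and less RNA per cell cannot be told apart.

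Markers of the cotyledon were above background on all 6 arrays at all 12 of their probe sets (glycinin, beta-conglycinin, Kunitz inhibitor and P34 genes). Their summed signal was 640440 to 657845 in the control and 345716 to 471304 in the lines, and the list holds the storage globulins themselves. Of 12 probe sets for seed coat markers, 6 were above background on every array and 4 on none (Ep, ANR1, PRP1 and a probe set of LOC547499), and their summed signal was 19329 to 20411 in the control and 8806 to 10326 in the lines. That sum is carried by PRP2 and SBPRP. Every RNAi array was above the control arrays at 3 of the 12 and below them at 6, against 25.9% and 23.6% of all tested probe sets. Those counts include Ep and the LOC547499 probe set that were below background on every array. SCB1, at 248 and 278 in the control and 1153 to 1258 in the lines, rose by 2.10 (limma, adjusted p = 0.0488). Called lower were SBPRP, at -1.43 (limma, adjusted p = 0.0488), and PRP2 at its _s_at probe set, at -1.51 (adjusted p = 0.0491). DFR1, below background in the control and at 118 to 135 in the lines, was called higher (limma, adjusted p = 0.0488). It entered the test through the lines alone, so that call is no support. Of 14 probe sets for leaf and green tissue, 7 were above background on every array, with sums of 131939 to 138113 in the control and 104007 to 142248 in the lines, carried by CAB3. Of these 14, 4 had every RNAi array above the control arrays and 0 below, against the same 25.9% and 23.6%. The 4 include a VSPA probe set that was below background on every array. VSPA rose by 2.04 and 2.37 at the probe sets called (limma, adjusted p = 0.0488 for each). At the one with 2.04 the control had 91.1 and 59.7, the second value below the background of its array (68.4). That probe set entered the test through the lines alone, so 2.04 is no measured size and its call is no support. The other tested probe sets of VSPA disagreed, at 0.98 and -0.018, neither called. Of 4 root nodule probe sets, 0 were above background on every array. The marker calls above came from the fit of both lines against the control. They were lost with any RNAi array left out, robust moderation, a pseudocount of 1, no filter, or quantile or median normalization. The part of these tissues in the results below was not tested.

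Among the processing enzymes, VPE, whose product belongs to the asparaginyl endopeptidases, differed between the samples by less than the arrays of line 2 differed from each other. VPE gave 18597 and 19255 in the control, 18980 and 19475 in line 1, and 18247 and 21227 in line 2. The lowest and the highest value came from the arrays of line 2, and the groups overlapped. The log2 difference of the mean of both lines from the control was 0.04 (SE 0.10), with a 95% interval from -0.26 to 0.34 (limma, adjusted p = 0.804). The sign itself turned to -0.015 when the second array of line 2 was left out, so no direction is given for VPE.

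VPE2, a further gene of the same enzyme family, had lower signals in the lines at both of its probe sets under the deposited scaling, though not with arrays scaled to the spikes. The probe sets carry the same cluster name and may share probes. At the first, with the plain suffix _at, the signals were 887 and 812 in the control, 497 and 564 in line 1, and 633 and 638 in line 2. All 4 RNAi arrays lay below both control arrays, and line 1 lay below line 2. The log2 difference of both lines from the control was -0.54 (SE 0.16, interval -1.005 to -0.068), which missed the threshold (limma, adjusted p = 0.126).

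At the other VPE2 probe set, with the suffix _x_at that the manufacturer uses for probes that can also bind related transcripts, the signals were 851 and 739 in the control, 720 and 585 in line 1, and 639 and 649 in line 2. Here too every RNAi array was below the control arrays, the first array of line 1 (720) being the nearest to the control (739), and the lines overlapped each other. The log2 difference was -0.29 (SE 0.099, interval -0.58 to 0.0077; limma, adjusted p = 0.157). So the gap between line 1 and line 2 that the first probe set showed did not appear at the second. Scaled to the poly-A spikes, the differences became 1.003 and 1.25, both of the opposite sign, and -0.52 and -0.27 relative to the median probe set under that scaling.

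The aspartic protease gene SOYAP1 had higher signals in both lines at both probe sets. At the first, with the suffix _at, the signals were 1293 and 1303 in the control, 1695 and 1716 in line 1, and 1833 and 1831 in line 2. Arrays of one sample differed by at most 0.018 on the log2 scale, and the 3 samples did not overlap. At the second SOYAP1 probe set, with the suffix _s_at used for probes shared by several transcripts, the signals were 1919 and 2111 in the control, 3123 and 3133 in line 1, and 3380 and 3013 in line 2. The RNAi arrays were again all above the control arrays, while the lines overlapped each other.

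Against the control, the log2 difference of both lines was 0.44 (SE 0.11, interval 0.11 to 0.77) at the first SOYAP1 probe set and 0.65 (SE 0.10, interval 0.35 to 0.95) at the second, or 1.36-fold and 1.57-fold. Neither passed over all tested probe sets (limma, adjusted p = 0.103 and 0.0656). Of all tested probe sets, 27.2% and 13.5% had differences at least as large in either direction. Relative to the median probe set after scaling to the spikes, SOYAP1 stood at 0.48 and 0.69, close to the values under the deposited scaling.

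SOYAP2, the other soybean gene of the aspartic protease pair, was at 5620 and 5955 in the control, 6891 and 6892 in line 1, and 6983 and 7441 in line 2. It was higher on every RNAi array, and line 2 lay above line 1. The log2 difference was 0.28 (SE 0.10, interval -0.025 to 0.59; limma, adjusted p = 0.169), and 46.0% of tested probe sets had one at least as large. The interval includes 0, so for SOYAP2 the order of the arrays is a description.

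**Figure D1:**
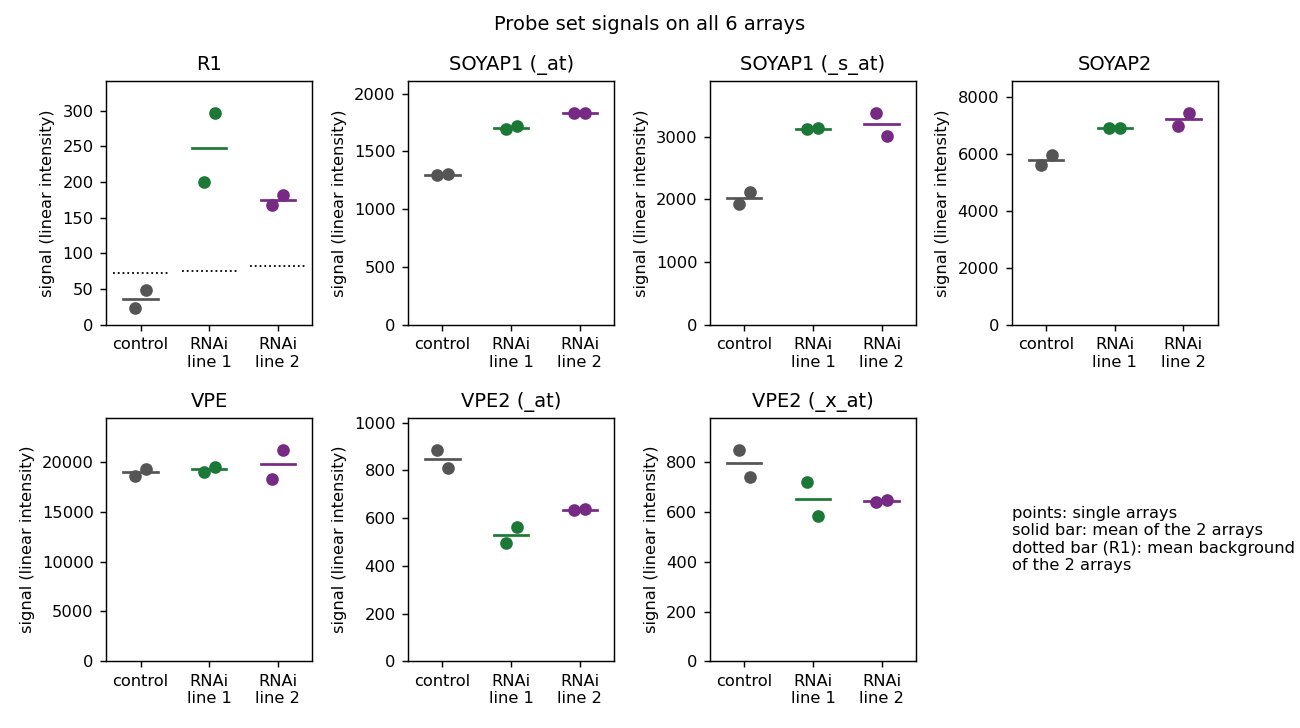
Signal (linear intensity, axes from 0) of each member probe set on all 6 arrays, as points by sample, with the mean of the 2 arrays as a bar and, for R1, the mean background as a dotted bar. R1 is below background in the control alone, SOYAP1 and SOYAP2 are higher and VPE2 is lower on every RNAi array under the deposited scaling (VPE2 turns higher when arrays are scaled to the poly-A spikes), and VPE overlaps.

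R1, taken as a cystatin, was below background in the control and above it in both lines. Its probe set gave 22.9 and 49.2 in the control, both below the background of their arrays, 75.6 and 68.4. In line 1 it gave 200 and 297, and in line 2 it gave 168 and 182, all above background, with line 2 below line 1. With the control at its background bound, R1 was at least 2.87-fold higher in the lines. The same bound was 3.39-fold for line 1 and 2.43-fold for line 2. No test was run on these bounds. The fitted difference of both lines, which used the control values as measured, missed the threshold (limma, adjusted p = 0.0531).

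R1 entered the test through the lines alone, so its fitted difference from the control is no measured size. That difference was 2.14 (SE 0.23) with the pseudocount of 16, 2.58 with 1 and 1.45 with 64. On leaving out single arrays it ran from 1.77 (limma, adjusted p = 0.0529, without control array 1) to 2.52 (adjusted p = 0.0422, without control array 2, the single such fit that called R1), and without an RNAi array the adjusted p lay between 0.0734 and 0.116. The arrays of the control differed by 0.75 on the log2 scale and those of line 1 by 0.54, against medians of 0.15 and 0.13 over all tested probe sets.

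With both lines against the control, 0 of the 7 members passed limma at an adjusted p of 0.05, where 1.64% of all tested probe sets did. That fit rests on 3 sample means with 1 residual degree of freedom, and an exact permutation of the 3 samples cannot give a p below 0.333. At an unadjusted p of 0.05 there were 4 of 7, R1, SOYAP1 at both probe sets and VPE2 at its first, against 33.1% of all tested. With the 6 arrays taken as replicates 4 of 7 passed, where 21.8% of all tested did. With the sample as a random block 6 of 7 passed, all but VPE, where 37.1% of all tested did; the correlation estimated for that block was -0.29, below 0. The groups did not overlap at 6 of 7 members, 4 higher and 2 lower, against 49.5% of all tested probe sets (25.9% higher and 23.6% lower). R1 is in each of these counts other than the 0 of 7. It passed the filter through the lines alone, so its place in them is no support.

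**Figure D2:**
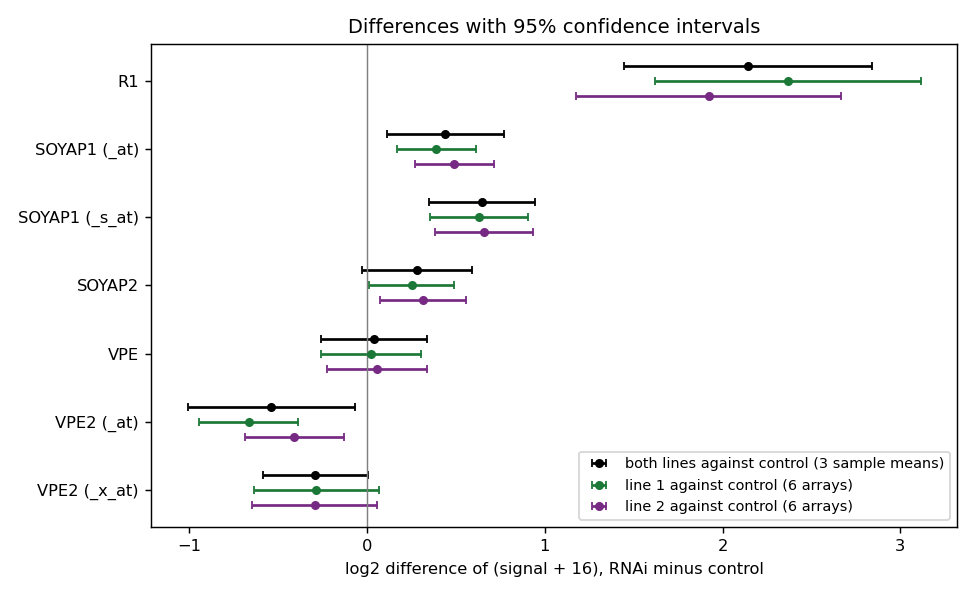
Log2 difference of (signal + 16) from the control for each member probe set, with 95% confidence intervals as bars, for both lines together (3 sample means, black) and for line 1 (green) and line 2 (purple) on 6 arrays, where intervals cover technical spread. The lower ends of the R1 intervals are at 1.18 or above (fitted against a control below background), SOYAP1 lies above 0, VPE spans 0, and VPE2 lies below 0 at its first probe set and reaches 0 at the other (both above 0 when arrays are scaled to the poly-A spikes).

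Each line was also set against the control on its own, which asks whether the independent lines show the same differences. These fits use the 6 arrays, and with 1 sample a side their p-values measure the spread between technical arrays. In line 1, 4 of 7 members passed (limma, adjusted p below 0.05), 3 higher and 1 lower, where 14.3% of all tested probe sets did (7.97% higher and 6.32% lower). R1 was called higher on its fitted difference (limma, adjusted p = 0.0128), while its bound of at least 3.39-fold was not tested. SOYAP1 rose at both probe sets (0.39 and 0.63, limma, adjusted p = 0.0448 and 0.0253). VPE2 fell at its first (-0.66, SE 0.11, limma, adjusted p = 0.0232). In line 2, 3 of 7 passed, all higher, where 15.4% of all tested did (8.48% higher and 6.91% lower). R1 was called on its fitted difference (limma, adjusted p = 0.0188), as was SOYAP1 (0.49 and 0.66, adjusted p = 0.0261 and 0.0219). The R1 bound of at least 2.43-fold was not tested.

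In line 2 the first VPE2 probe set stood at -0.41 (limma, adjusted p = 0.0643), and the other stood at -0.28 in line 1 and -0.29 in line 2, neither passing. SOYAP2 stood at 0.25 and 0.32 (limma, adjusted p = 0.138 and 0.081) and VPE at 0.023 and 0.057. R1 passed the filter through the lines alone, so its place in both counts is no support. Both comparisons share the control arrays, so that a deviation of the control would enter each of them.

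Several of these calls rested on single arrays. R1 was not called in line 1 without its first or its second array (limma, adjusted p = 0.0538 and 0.0671). In line 2 it was not called without control array 1 or either array of line 2 (limma, adjusted p = 0.057, 0.0754 and 0.0939). The first SOYAP1 probe set was not called in either line once any array was left out (adjusted p of 0.0724 to 0.183 in line 1 and 0.064 to 0.098 in line 2). The second was not called in line 1 without either control array or either array of line 1 (0.0678 to 0.118), nor in line 2 without any of the 6 (0.0548 to 0.087). VPE2 was not called in line 1 without either control array or either array of line 1 (0.0667 to 0.113). None of these directions turned on leaving an array out, though that of R1, below background in the control, is no support.

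The lines were then compared with each other. None of the 7 members differed between them by limma (0 of 7 at an adjusted p of 0.05 and 0 of 7 at an unadjusted one; 0.00% of all tested probe sets passed the former and 5.82% the latter). R1 was lower in line 2 by a difference of -0.45 (SE 0.30, interval -1.19 to 0.30; adjusted p = 0.959). VPE2 was higher in line 2 at its first probe set, at 0.26 (SE 0.11, interval -0.022 to 0.54; adjusted p = 0.883), and at -0.011 at its second. SOYAP1 differed by 0.10 and 0.029, SOYAP2 by 0.065 and VPE by 0.034. The arrays of the lines did not overlap at 4 of 7 members, against 35.1% of all tested probe sets.

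The plot of settings shows how far the choices of processing carry these differences. R1 and SOYAP1 were above 0 under all 18 alternatives to the fit of both lines against the control. R1 was below background in the control and entered the test through the lines alone, so its sign is no support. VPE2 was below 0 at both probe sets under each alternative other than the scaling to spikes.

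**Figure D3:**
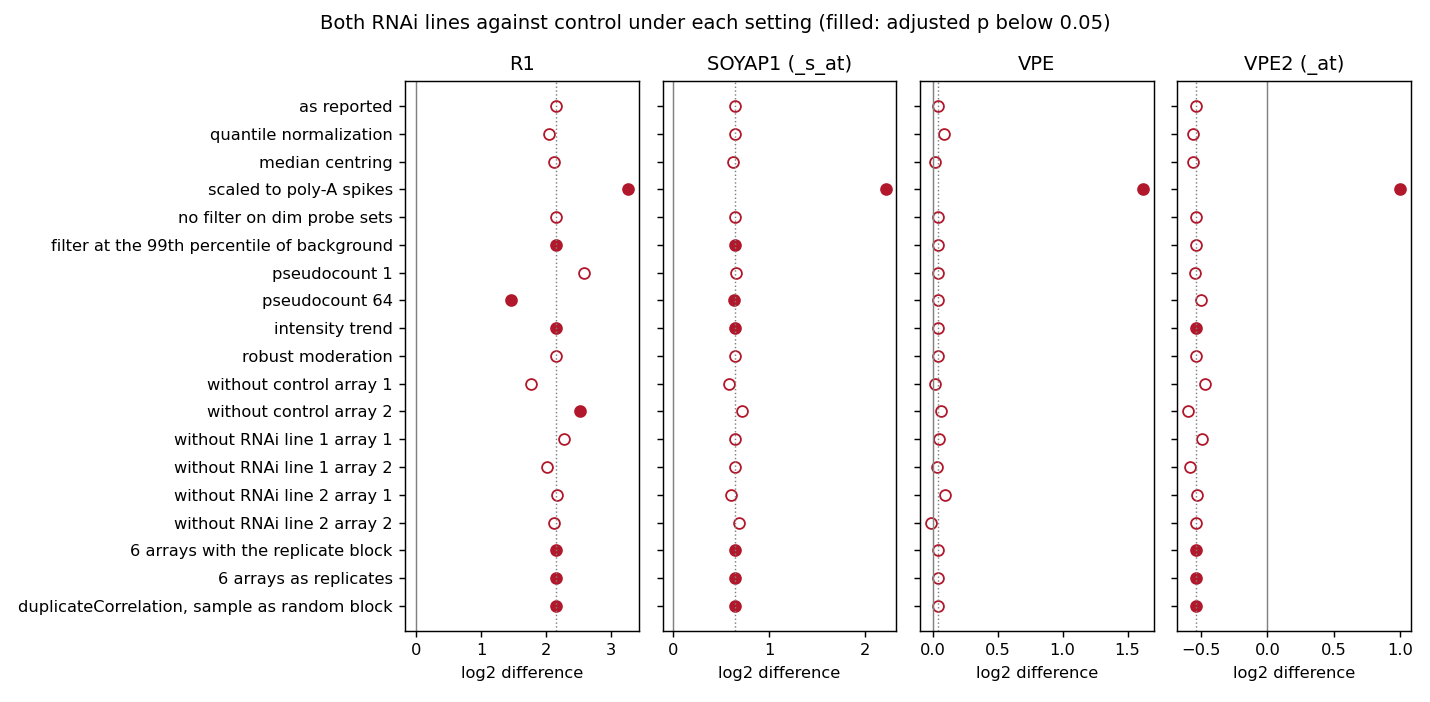
Log2 difference of both RNAi lines from the control for 4 member probe sets (columns, each with its own horizontal axis) under the reported setting and 18 alternatives (rows), with filled points for an adjusted p below 0.05. R1, fitted against a control below background, runs from 1.45 to 3.26, and SOYAP1 from 0.58 to 2.21. VPE stays near 0 except for 1.62 with spike scaling, and VPE2 is below 0 except for 1.003 with spike scaling.

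Other genes that act on or beside storage proteins were taken as lists by symbol, and described by counts and medians beside the median of 0.016 over all tested probe sets. In the list of asparaginyl endopeptidases and aspartic proteases, which is the members without R1, the median log2 difference of both lines from the control was 0.16 over 6 probe sets. Cysteine protease inhibitors had a median of -0.003 over 6 tested probe sets. Of these, 0 were called (limma) and 3 had an unadjusted p below 0.05, against 1.64% and 33.1% of all tested. Beside R1, the probe set of CYSTATIN, named for the inhibitor family, was at 5468 and 5416 in the control and between 6687 and 7219 in the lines, a difference of 0.34 (adjusted p = 0.128). L1, listed with the cystatins by its symbol, had probe sets that disagreed, from -0.33 to 0.096, none called. R1 had the largest fitted difference of these 6 probe sets and is among the 3 at an unadjusted p of 0.05. It entered the test through the lines alone, so neither is support.

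Papain-type cysteine proteases, the enzymes that cystatins inhibit, had a median of -0.17 over 5 probe sets. Of these, 0 were called (limma) and 1 had an unadjusted p below 0.05, against 1.64% and 33.1% of all tested. CYSP1 was at 419 and 388 in the control, 633 and 686 in line 1, and 580 and 479 in line 2. That is a difference of 0.53 (limma, adjusted p = 0.151) for both lines. In line 1 alone it rose by 0.69 (adjusted p = 0.03), the single call of this list in either line, and line 2 had 0.38 (adjusted p = 0.109); the difference between the lines was not called for any probe set. CYSP2 had 0.34 (adjusted p = 0.127). P34, a vacuolar protein of the papain family and a known soybean allergen, had -0.30 and -0.22 at its probe sets, and CP3 had -0.17, with control signals of at least 44471 for both genes and overlapping arrays.

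Among serine proteases and metalloproteases only the matrix metalloprotease gene MMP2 was tested. At its first probe set the signals were 82.6 and 122 in the control and between 18.5 and 62.7 in the lines. All RNAi arrays were below background there. With the lines at their background bound it was at least 1.27-fold lower, which was not tested. This probe set entered the test through the control alone, so its fitted difference is no measured size. That difference missed the threshold (limma, adjusted p = 0.0507). At the second MMP2 probe set the control had 198 and 214 and the lines between 77.9 and 116, a difference of -0.95 (limma, adjusted p = 0.0627), and it fell in line 1 and in line 2 taken alone (adjusted p = 0.0189 and 0.0287), while the first probe set was called in neither (adjusted p = 0.129 and 0.111). The line values of the second MMP2 probe set were near background, which was 74.2 to 91.7 on the RNAi arrays, so the floor limits that difference. SMEP1, a further metalloprotease gene, was below background on all 6 arrays.

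Kunitz and Bowman-Birk inhibitors, which act on serine proteases such as trypsin, had a median of 0.078 over 8 tested probe sets. Of these, 1 was called lower, BBI-2, and 0 higher, where 1.64% of all tested were called in either direction. BBI-2 fell from 395 and 387 to between 98.7 and 161 (log2 difference -1.53, limma, adjusted p = 0.0488). This call was lost with any RNAi array left out, robust moderation, a pseudocount of 1, no filter, or quantile or median normalization, where no probe set was called. BBI-1, KTI-2 and KTI-3 had 0.96, 0.52 and 0.45 at their probe sets of largest difference, none called for both lines together. BBI-1 was at 69.3 and 75.3 in the control, against backgrounds of 75.6 and 68.4. It entered the test through the lines alone, so its fitted difference is no measured size and a call of it is no support. In line 2 alone BBI-1 (limma, adjusted p = 0.0218) and KTI-3 at 1 probe set (adjusted p = 0.0444) were called higher. In line 1 neither was (adjusted p = 0.0651 and 0.0919), and the difference between the lines was not called for either. For the vacuolar membrane, 3 probe sets of the sodium and proton exchanger NHX1 lay between -0.23 and 0.14, none called. No probe set carried a symbol of the vacuolar sorting list.

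**Figure D4:**
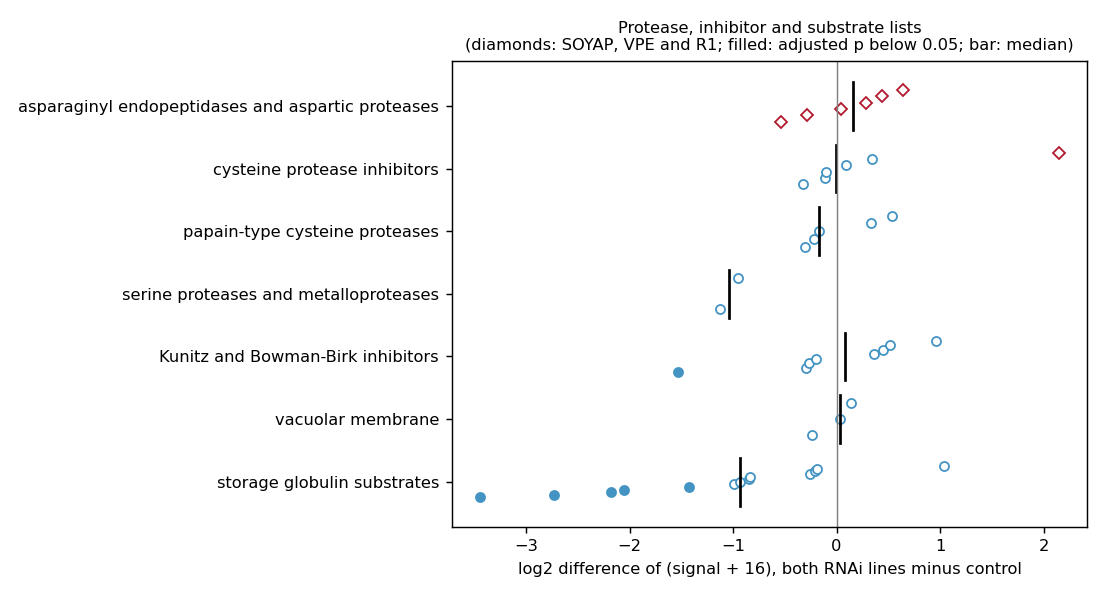
Log2 difference of (signal + 16) of both RNAi lines from the control for each tested probe set (points) by list (rows), with the list median as a bar, diamonds for the members and filled points for an adjusted p below 0.05. R1 is the highest point at a fitted 2.14, from a control below background, and the filled points are BBI-2 and 5 probe sets of storage globulins, all lower.

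The substrates of these enzymes set the scale of the comparison. Over 13 tested probe sets of glycinin and beta-conglycinin genes the median log2 difference was -0.93, with 5 called lower and 0 higher (limma). Of all tested probe sets, 1.64% were called in either direction. GY3, for a glycinin subunit, fell by 3.44, CG-BETA-1, for the beta subunit of beta-conglycinin, fell by 2.18 at its probe set of larger difference, and GY2, for another glycinin subunit, fell by 2.73 likewise. These 5 calls were lost under the same alternatives as that of BBI-2. GY7, a dim glycinin gene, went the other way, from 264 and 313 to between 576 and 672, a difference of 1.04 (limma, adjusted p = 0.0526; 0.0112 in line 1 and 0.0127 in line 2 alone). GY1, for a further glycinin subunit, had -0.99 and -0.84 at its probe sets, neither called for both lines together. GY4 and GY5 had differences between -0.26 and -0.19, none called. Against these, SOYAP1, SOYAP2, VPE and VPE2 had differences between -0.54 and 0.65. A test of the difference between the lists was not run.

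Likeness to R1 was measured as the distance between centred log2(signal + 16) values over the 6 arrays, among 1182 tested probe sets with 1 gene name. The nearest genes were HSP23.9, for a small heat shock protein (distance 0.74), BG7S-2, for a basic globulin of the seed (0.80), and the chaperone gene HSP90A1 (0.80). HSP23.9 had 409 and 417 in the control and between 1884 and 2065 in the lines. BG7S-2 had 1356 and 1433 in the control and between 6082 and 6967 in the lines. The 6 arrays stand for 3 samples, so the likeness says little more than that the fitted gaps between control and lines are similar. R1 was below background in the control, so its own gap is no measured size. The order of its neighbours may depend on the pseudocount of 16, which was not tested. The brightest probe sets of SOYAP1, SOYAP2, VPE and VPE2 ranged over less than 1 log2 unit across the arrays (0.81, 0.40, 0.22 and 0.53), and no likeness was sought for them.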

How the data were processed

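The table that the authors deposited holds linear intensity values per probe set for 6 Affymetrix arrays. Per the labels, total RNA was extracted with acid phenol and labelled by a one-cycle procedure. From the values, arrays were already on a common scale: between their 2nd and 98th percentiles all had a mean of 499.9. The software that made the values is not given in the sources used here. Gene symbols came from the platform annotation, updated by gene identifier through the RefSeq table of Glycine_max_v4.0; no coordinates are given, as no build is named.

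Models used limma 3.58.1 in R 4.3.3 (lmFit, eBayes) on log2(signal + 16), with Benjamini-Hochberg adjustment over 27460 tested probe sets. Both lines against the control used 3 sample means, and the lone control sample is taken to vary like a line. Single lines used 6 arrays (3 residual degrees of freedom). Fits were tested on simulated data. Alternatives covered normalization, the filter, the pseudocount, the moderation, single arrays left out and the unit of replication. The members, the lists (matched by symbol, since no product names were given) and the alternatives were chosen with earlier results of these data known. Named are every member probe set, up to 4 members of each list with the largest difference, and the 3 genes nearest to a member ranging over 1 log2 unit. In the storage globulin list GY1, GY4 and GY5 are named beyond those 4. CYSTATIN was matched by the list's own word.

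A gene below background on both control arrays is reported with a lower bound on its fold change, from mean log2 signals with each control array at its background.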

Additional observations from a re-analysis of the deposited data

How the results depend on the processing

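For both lines against the control, 0 of 7 members were called, and 1.64% of all tested probe sets. The members called, with the share of all tested in parentheses, were 7 after scaling to the poly-A spikes (96.5%), 2 with the 99th percentile of background as the filter (13.2%), 2 with a pseudocount of 64 (12.9%), 5 with an intensity trend (31.0%), 4 with the 6 arrays as replicates (21.8%) and 6 with duplicateCorrelation (37.1%), and 0 to 1 on leaving out an array (0.00% to 6.86%). For line 1 (4 of 7) they were 7 with spikes (96.3%), 1 with no filter (2.83%) and 0 to 3 on leaving out an array (1.20% to 9.17%). For line 2 (3 of 7) they were 7 with spikes (96.4%), 0 with no filter (3.01%), 5 with an intensity trend (26.7%) and 0 to 1 on leaving out an array (1.92% to 7.45%). Over all tested probe sets the count for both lines was 451, and ran from 0 (with any RNAi array left out, robust moderation, a pseudocount of 1, no filter, or quantile or median normalization) to 26511 (spikes). Array numbers share only a number: deviations of same-numbered arrays correlated at 0.015, -0.0075 and 0.017. With the replicate block the members called were 4 for both lines (16.3% of all tested), 1 for line 1 (8.02%) and 2 for line 2 (9.27%).

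Directions turned as follows. With spikes, VPE2 became 1.003 and 1.25 for both lines, 0.87 and 1.26 for line 1, and 1.13 and 1.24 for line 2. VPE turned to -0.0039 in line 1 with median centring. On leaving out an array VPE ran from -0.015 to 0.094 for both lines (below 0 without the second array of line 2), from -0.0022 to 0.048 for line 1 (below 0 without control array 1) and from -0.052 to 0.17 for line 2 (below 0 without its second array). Between the lines, VPE became -0.030 after quantile normalization and ran from -0.075 to 0.14 on leaving out an array, the second VPE2 probe set from -0.16 to 0.13, and the second SOYAP1 probe set from -0.054 to 0.11. The causes were not tested. R1 in the control is limited by background. It passed the filter through the lines alone, so its place in the counts of members called is no support.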
